A study of Homo sapiens with 6 samples.

Results

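The 54 genes described here encode the enzymes and factors that license replication origins, run the replication fork and supply its nucleotides. They were picked by symbol out of the 58302 genes in the count files, 57532 of which had a symbol, and were sorted by complex into 8 groups. The libraries were labelled as MDA-MB-231, an established line of triple-negative breast cancer cells. Its cells stably expressed either a control shRNA or Smyca shRNA #1, a hairpin against Smyca, a long non-coding RNA whose gene is MIR23AHG. There were 3 repeats of each, called control and Smyca knockdown below. Every library was from cells carrying a hairpin vector under standard culture, with no other agent named in the labels, and the knockdown rested on 1 hairpin in 1 line. The study called the repeats biological, but the labels do not say whether they were separate cultures, so the p-values measure the spread between these libraries. The question addressed was which of these genes differed when Smyca was knocked down.

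Total counts per library lay between 14999307 and 16501085. Values are given below as normalized CPM, which are read counts scaled for library size with TMM factors, in the order of repeats 1, 2 and 3. MIR23AHG, the targeted gene, stood at 25.0, 19.5 and 22.0 normalized CPM in the control and at 10.5, 6.97 and 5.61 in the knockdown, a log2 difference of -1.53 (standard error 0.26), and its groups did not overlap. The repeats varied beyond counting noise by a biological coefficient of variation of 27.9% among the control and 22.1% among the knockdown libraries. All 7 mesenchymal markers of the line were present, with a summed level of 900.4 to 2066 normalized CPM in the control and 859.6 to 1303 in the knockdown. Their differences were all below 0, from -1.12 (LGALS1) to -0.043 (MSN), with a median log2 difference of -0.94, and 5 of the 7 (VIM, LGALS1, EGFR, CAV1 and CD44) were lower at an unadjusted p under 0.05, beside 10.4% of all genes. VIM, the filament protein vimentin and the 1 marker here whose groups did not overlap, differed by -1.09. The 8 luminal breast markers gave 1103 to 2212 in the control and 1085 to 1346 in the knockdown, which goes against the label. Of these, ESR1, PGR and FOXA1, which define luminal cells, were at or near 0 in all 6 libraries. KRT19, a luminal keratin and most of that sum, was at 1957, 1419 and 849.8 normalized CPM in the control and at 860.0, 1183 and 1158 in the knockdown. AGR2 lay between 65.4 and 82.7 in the control and between 27.1 and 47.2 in the knockdown, and XBP1 between 163 and 169 in the control and between 101 and 172 in the knockdown. Of the 5 luminal markers tested, all were below 0, from -1.12 (AGR2) to -0.042 (GATA3). The summed level of 12 gut and liver epithelium markers was 294 to 542 normalized CPM in the control and 628 to 708 in the knockdown, most of it from VIL1 and HNF4A, while CDX1, AFP and TTR were at 0 in every library. The 5 of these 12 markers tested ranged from -1.14 (LGALS4, 5 to 21 counts per library) to 1.23 (CDH17, 11 to 67 counts). Groups were apart for LGALS4 and for VIL1, which differed by 0.62. Over the 6 libraries, VIL1 ranged from 220 to 501 normalized CPM and HNF4A from 65.4 to 194. VIL1 exceeded VIM, which ranged from 71.2 to 305, in every library. These gut and liver levels also go against the label, and the identity of the cells was not tested. The part of the marker differences in the results below was not tested.

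DNA is copied once per cell cycle because origins are licensed and fired in separate steps. Before S phase, the origin recognition complex with CDC6 and CDT1 loads rings of MCM proteins onto DNA, and geminin later blocks CDT1. In S phase, the kinase CDC7 with DBF4, together with cyclin E and its kinase, turns the ring into the active helicase by adding CDC45 and the GINS proteins. Polymerases alpha, delta and epsilon then copy the strands with the help of the PCNA clamp, its loader RFC and the single-strand binder RPA. E2F transcription factors, released when the retinoblastoma protein is phosphorylated, are the textbook activators of most of these genes, and dividing cancer cells transcribe them.

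Most of the 54 genes were somewhat higher in the Smyca knockdown than in the control, and none of them passed the threshold for a differentially expressed gene (DEG) in edgeR's test. For a DEG, control divided by knockdown had to reach 1.5 or stay within 0.66, at an adjusted p below 0.05 (edgeR's quasi-likelihood test, Benjamini-Hochberg over all genes tested). All 54 passed the filter on low counts, with 39 to 19485 counts per gene and library. Of these, 51 were above 0 in the difference of knockdown minus control, against 46.6% of the 15075 genes tested. E2F7, ORC2 and PRIM2 were below 0. The median log2 difference of the 54 genes was 0.47, beside -0.036 for all genes tested. In bulk libraries, fewer cells that express a gene and less of its RNA per cell cannot be told apart.

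With edgeR, 0 of the 54 genes were DEGs, against 0.0265% of all genes tested (4 genes), and their adjusted p-values lay between 0.111 and 0.901 by the quasi-likelihood test with Benjamini-Hochberg adjustment. At an unadjusted p under 0.05, 28 of the 54 were higher in the knockdown, beside 8.74% of all genes, and 0 were lower, beside 10.4% of all genes. Every knockdown library lay above every control library for 29 of them, against 12.5% of all genes, and ORC2 was the 1 member for which every knockdown library lay below, against 12.4% of all genes. A control to knockdown ratio of at most 0.66 was reached by 16 members, beside 5.54% of all genes. An exact permutation test of 3 libraries against 3 cannot give a two-sided p under 0.1, so single genes were not called on it. The p and the gap between the groups did not always go together. Both held for 23 members. For 5 members, E2F1, E2F2, POLD1, RFC3 and RPA1, the p was under 0.05 while the groups overlapped, and for 6, E2F3, E2F8, CCNE2, DBF4, POLD3 and RFC2, the groups were apart at a p of 0.05 or more.

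**Figure D1:**
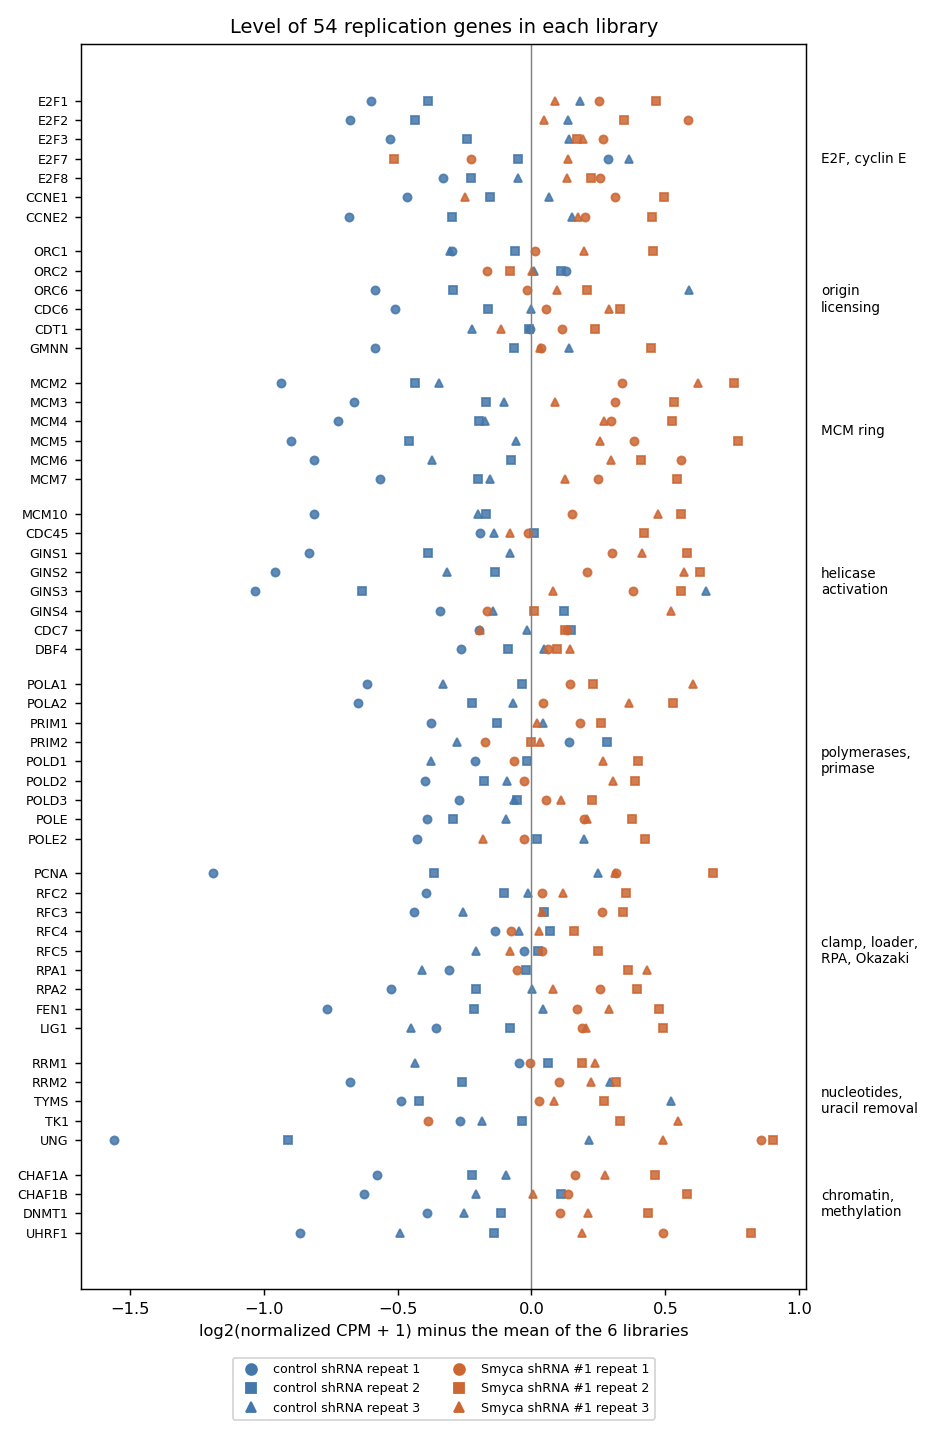
Level of each of the 54 genes in the 6 libraries, as log2(normalized CPM + 1) minus the gene's mean over the 6 libraries (horizontal axis), with genes by complex (vertical axis). Blue marks are the control, orange marks the Smyca knockdown, and the shape gives the repeat. Control repeat 1 (blue circles) was the lowest library for 43 of the 54 genes and knockdown repeat 2 (orange squares) the highest for 37.

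The number of calls depended on the method. DESeq2's Wald test on the same genes called 13 members higher in the knockdown under the same criteria, against 2.26% of all genes. These were CHAF1A, GINS1, GINS2, LIG1, MCM10, MCM2, MCM4, MCM5, MCM6, MCM7, POLA1, UHRF1 and UNG. Without a filter on low counts, edgeR called 11 members higher, against 1.14% of all genes. Without control repeat 3, it called 19 members higher, against 4.04% of all genes. These were CHAF1A, E2F1, E2F2, E2F3, FEN1, GINS1, GINS2, GINS3, MCM10, MCM2, MCM4, MCM5, MCM7, PCNA, POLA2, POLE, RRM2, UHRF1 and UNG. The count at an unadjusted p under 0.05 was 17 without control repeat 1, beside 5.02% of all genes, and 14 without knockdown repeat 2, beside 4.75% of all genes. With library totals in place of TMM scaling it was 19, beside 5.86% of all genes. That scaling moved the higher share of all calls at p under 0.05 from 45.6% to 31.0%.

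**Figure D2:**
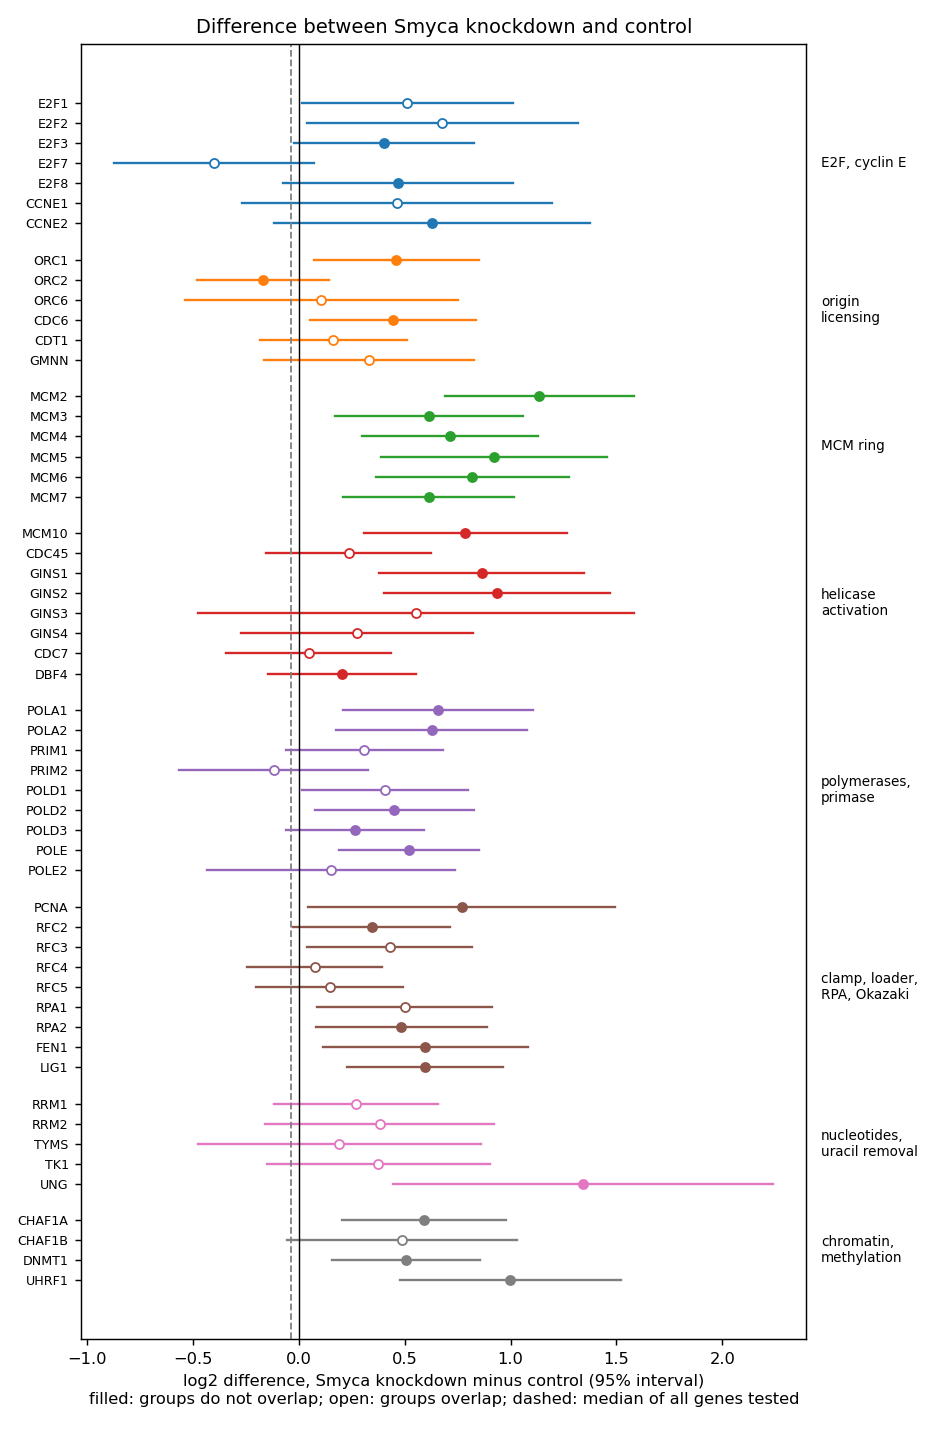
Log2 difference of each gene, Smyca knockdown minus control, with its 95% interval from edgeR (horizontal axis), for the 54 genes by complex (vertical axis, coloured by complex). Filled points are genes whose groups did not overlap, open points genes whose groups did, and the dashed line is the median of all genes tested, -0.036. The 6 genes of the MCM ring are all filled and lie between 0.61 and 1.14.

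The E2F recognition word was common in the promoters of these genes. RefSeq windows from 250 bases before to 50 after the transcription start (GRCh38.p14) were searched on both strands for TTTCCCGC, TTTCGCGC, TTTGCCGC and TTTGGCGC. The windows held 47 of the 54 members, and 25 of these, or 53.2%, had at least 1 word, compared with 3.99% of the 27305 genes in the table. All 4 MCM ring genes with a window had one. Of 46 other replication genes with a window, 12 had a word (26.1%), and of 18 mitotic genes, 2 did (11.1%). The 4 windows below were taken from those that no annotated exon reaches into before the start of transcription, and are cut at that start. They show the member with the most words (MCM6), E2F1 itself, a helicase subunit whose groups were apart (GINS2) and a licensing factor whose groups overlapped (CDT1). Capitals mark the words, and each run is 5′ to 3′ along the gene's strand.
MCM6, chr2:135876444-135876693, minus strand: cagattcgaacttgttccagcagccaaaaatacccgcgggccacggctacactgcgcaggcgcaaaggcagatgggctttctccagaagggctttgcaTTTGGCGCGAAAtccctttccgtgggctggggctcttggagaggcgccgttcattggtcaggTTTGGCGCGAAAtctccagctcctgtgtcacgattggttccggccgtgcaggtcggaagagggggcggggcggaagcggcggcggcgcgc
E2F1, chr20:33686386-33686635, minus strand: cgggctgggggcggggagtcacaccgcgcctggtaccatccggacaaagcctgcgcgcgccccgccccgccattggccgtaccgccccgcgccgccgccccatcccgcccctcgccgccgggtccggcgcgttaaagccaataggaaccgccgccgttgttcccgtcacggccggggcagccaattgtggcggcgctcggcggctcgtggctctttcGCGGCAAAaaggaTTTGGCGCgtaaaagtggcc
GINS2, chr16:85688955-85689204, minus strand: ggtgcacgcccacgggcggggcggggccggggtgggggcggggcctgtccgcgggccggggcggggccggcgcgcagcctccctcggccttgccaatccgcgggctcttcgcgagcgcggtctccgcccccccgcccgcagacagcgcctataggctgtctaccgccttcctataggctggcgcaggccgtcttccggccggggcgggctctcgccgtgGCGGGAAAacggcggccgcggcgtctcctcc
CDT1, chr16:88803539-88803788, plus strand: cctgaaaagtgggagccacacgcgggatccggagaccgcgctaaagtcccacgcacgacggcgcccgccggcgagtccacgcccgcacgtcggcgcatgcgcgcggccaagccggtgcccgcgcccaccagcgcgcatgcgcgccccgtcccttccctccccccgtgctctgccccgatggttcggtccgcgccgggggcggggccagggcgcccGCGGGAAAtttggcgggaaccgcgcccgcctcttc

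In the MCM6 window, the words lie in 2 overlapping pairs between 78 and 152 bases before the start. Those of E2F1 lie between 12 and 33 bases before it. GINS2 has a single word between 23 and 31 bases before its start and CDT1 one between 27 and 35. The words of these last 3 genes thus sit closer to the start than those of MCM6. The 25 members with a word had a median log2 difference of 0.59 and the 22 without one of 0.36. Over all tested genes with a window, the medians were 0.073 for 718 genes with a word and -0.014 for 10246 without. A word in a window is a description of its letters and was not tested as a binding site.

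The E2F factors and E-type cyclins included the least abundant of the 54 genes and were mostly higher in the knockdown. Of these 7 genes, 6 were above 0, beside 46.6% of all genes, with a median log2 difference of 0.47. At an unadjusted p under 0.05, 2 were higher (E2F1 and E2F2), beside 8.74% of all genes. The groups overlapped for 4 of the 7. E2F1, E2F2 and E2F3 encode the activating E2Fs. E2F2 (ENSG00000007968) had the largest difference of the group and stood at 6.97, 8.43 and 13.0 normalized CPM in the control and at 18.1, 15.2 and 12.1 in the knockdown. Knockdown repeat 3 was below control repeat 3, so the groups overlapped. Its log2 difference was 0.68 (standard error 0.28), and those of E2F1 and E2F3 were 0.51 and 0.40. With single repeats left out, E2F1 ranged from 0.35 to 0.78, the highest without control repeat 3.

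E2F7 and E2F8 encode atypical E2Fs that repress E2F targets, and their differences had opposite signs. E2F7 (ENSG00000165891, chr12:77021248-77065569 in GRCh38) stood at 40.6, 31.9 and 43.0 normalized CPM in the control and at 28.2, 22.9 and 36.5 in the knockdown. Knockdown repeats 1 and 2 were below every control library, and knockdown repeat 3 lay among them. The log2 difference was -0.40, with a 95% interval of -0.87 to 0.074, and it was the lowest of the 54 genes. This interval included 0, but E2F7 was lower at an unadjusted p under 0.05 under 4 of the alternatives, such as library totals (log2 difference -0.47). E2F8 differed by 0.47 with groups that did not overlap. The cyclins CCNE1 and CCNE2, which activate CDK2 at the start of S phase, differed by 0.46 and 0.63, each with an interval that included 0. CCNE2 came to 0.26 with the reads implied by FPKM in control repeat 2 and to 0.95 without control repeat 3. Exons of CCNE2 share 1629 bases with INTS8 on the other strand, and whether reads were counted by strand is not given in the sources used here. Adjusted p-values of the 7 genes lay between 0.239 and 0.457 (edgeR's quasi-likelihood test, Benjamini-Hochberg).

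The licensing factors showed the smallest median difference of the 8 groups, 0.25. Of their 6 genes, 2 were higher at an unadjusted p under 0.05, beside 8.74% of all genes. The same 2 genes had every knockdown library above the control, against 12.5% of all genes. ORC1, the ATPase subunit of the origin recognition complex that varies with the cell cycle, stood at 26.4, 31.3 and 26.3 normalized CPM in the control and at 33.0, 45.1 and 37.6 in the knockdown. CDC6, the ATPase that joins this complex to load the MCM ring, was at 55.1, 70.4 and 78.8 in the control and at 82.0, 99.4 and 96.7 in the knockdown. For both genes, the lowest knockdown library lay just above the highest control library. Their log2 differences were 0.46 and 0.44 (standard errors 0.17 and 0.17).

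ORC2, a core subunit of the same complex, went the other way. ORC2 (ENSG00000115942, chr2:200908977-200963680) stood at 42.0, 41.4 and 38.5 normalized CPM in the control and at 34.0, 36.2 and 38.4 in the knockdown. Control repeat 3 exceeded knockdown repeat 3 only slightly, and the log2 difference of -0.17 had a 95% interval of -0.48 to 0.14. With RLE size factors, 0 members lay wholly below the control, so the gap depended on the scaling. ORC6, which spread from 36.0 to 82.4 normalized CPM in the control, differed by 0.11, and its sign turned when control repeat 1 or 2 was left out or when the reads implied by FPKM stood for control repeat 2. Without control repeat 3, the median of the 6 genes was 0.46. CDT1, which delivers the ring to the origin, and GMNN, its inhibitor geminin, differed by 0.16 and 0.33 with overlapping groups. Adjusted p-values in the group lay between 0.200 and 0.861 (edgeR's quasi-likelihood test, Benjamini-Hochberg).

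The MCM ring, the core of the replicative helicase, was higher in the knockdown in every subunit. All 6 subunits had an unadjusted p under 0.05, beside 8.74% of all genes higher at that p. Their groups did not overlap, against 12.5% of all genes with the knockdown wholly above the control. All 6 reached a ratio of at most 0.66, beside 5.54% of all genes. Their median log2 difference was 0.77, the largest of the 8 groups. MCM2 (ENSG00000073111, chr3:127598410-127622436) stood at 193, 273 and 291 normalized CPM in the control and at 467, 626 and 569.9 in the knockdown. Its knockdown mean was 554 ± 80.5 (SD, n = 3) against 252 ± 52.2 in the control, which was 2.20-fold on the scale of the fit. This was the largest difference of the ring. MCM5 stood at 116, 158 and 208 in the control and at 283, 370.0 and 259 in the knockdown. MCM6 was measured at 69.5, 116 and 94.8 in the control and at 181, 163 and 151 in the knockdown. In each of these 3 genes, the lowest knockdown library exceeded the highest control library.

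MCM3, MCM4 and MCM7 followed at smaller differences. MCM4 was at 194, 279 and 284 normalized CPM in the control and at 394, 461 and 386 in the knockdown. MCM3 was at 193, 271 and 285 in the control and at 379, 442 and 324 in the knockdown, and its knockdown repeat 3 was the library closest to the control. MCM7 had 571, 736 and 760.5 in the control and 1006, 1234 and 923 in the knockdown. Control repeat 1 was the lowest library for all 6 subunits. The log2 differences were 1.14 for MCM2, 0.92 for MCM5, 0.82 for MCM6, 0.71 for MCM4, 0.61 for MCM3 and 0.61 for MCM7, with standard errors from 0.18 to 0.23. MCM7 shares 392 exon bases with AP4M1 on the other strand, which had a mean of 209 counts against 13734 for MCM7. Adjusted p-values lay between 0.111 and 0.156 (edgeR's quasi-likelihood test, Benjamini-Hochberg).

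**Figure D3:**
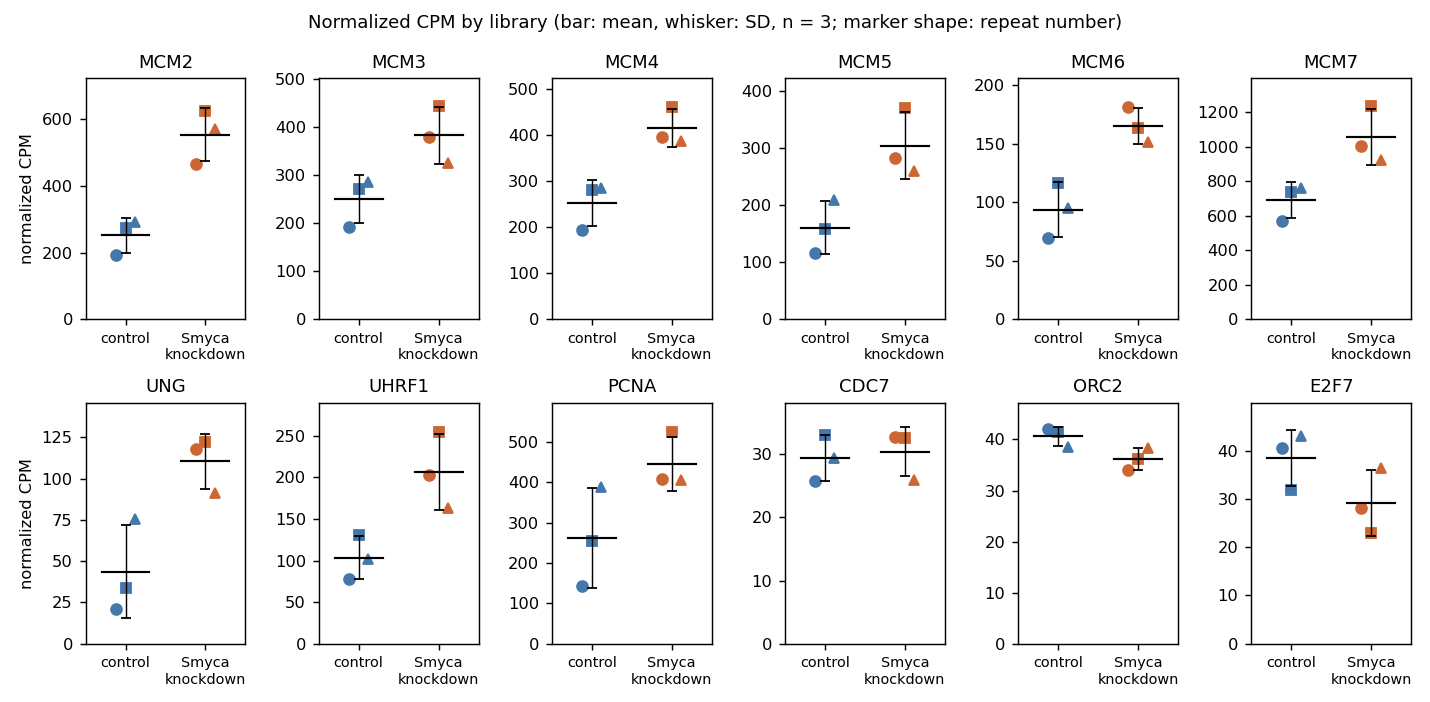
Normalized CPM (vertical axes, from 0) of the 6 MCM ring genes (upper row) and of UNG, UHRF1, PCNA, CDC7, ORC2 and E2F7 (lower row) in the control (blue) and the Smyca knockdown (orange). Points are libraries, with their shape giving the repeat, bars are means and whiskers SD over 3 libraries. In the upper row no knockdown point lies at or below a control point, and in the CDC7 panel the groups overlap.

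Among the factors that turn the loaded ring into the moving helicase, the differences ranged from near 0 to among the largest of the 54 genes. All 8 genes were above 0, beside 46.6% of all genes, with a median log2 difference of 0.41. Of them, 3 had an unadjusted p under 0.05, beside 8.74% of all genes higher at that p. GINS2 was at 17.4, 31.6 and 27.7 normalized CPM in the control and at 40.3, 54.4 and 52.0 in the knockdown. GINS1 was at 16.4, 22.7 and 28.3 in the control and at 37.1, 45.4 and 40.2 in the knockdown. Both encode subunits of the GINS complex, which joins the helicase, and their groups were apart, with log2 differences of 0.94 and 0.86 (standard errors 0.23 and 0.21). The other two GINS genes overlapped between the groups. GINS3 differed by 0.55 with a 95% interval of -0.48 to 1.58, the widest of the 54 genes, and GINS4 by 0.28 with an interval of -0.27 to 0.82. Without control repeat 3, GINS3 differed by 1.33 on the log2 scale and was a DEG by edgeR's quasi-likelihood test, at an adjusted p of 0.0222. Over the 13 alternatives, its adjusted p lay between 0.0222 and 0.89. The differences between subunits were not tested. GINS1 shares 259 exon bases with NINL on the other strand.

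MCM10, which is needed for the assembled helicase to start unwinding, stood at 21.9, 34.7 and 34.0 normalized CPM in the control and at 43.6, 58.2 and 54.7 in the knockdown. Its groups were apart, and the log2 difference was 0.79 (standard error 0.21). CDC45, the remaining helicase cofactor, differed by 0.24 with an interval of -0.15 to 0.63. CDC7, the catalytic subunit of the kinase that fires origins, stood at 25.8, 33.0 and 29.3 normalized CPM in the control and at 32.7, 32.5 and 25.9 in the knockdown. These values interleaved, the log2 difference was 0.047 with a 95% interval of -0.34 to 0.44, and it took the opposite sign, -0.025, with library totals as the scale. DBF4, its activator, differed by 0.20 with groups that did not overlap. Without control repeat 1, the median of the 8 genes was 0.21. Adjusted p-values in the group lay between 0.122 and 0.901 (edgeR's quasi-likelihood test, Benjamini-Hochberg).

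Polymerase alpha, which with primase starts each new strand, showed the largest differences among the polymerase genes of the 54. Of the 9 polymerase and primase genes, 8 were above 0, beside 46.6% of all genes, and the median log2 difference was 0.41. An unadjusted p under 0.05 was reached by 5, all higher, beside 8.74% of all genes. POLA1, the catalytic subunit of polymerase alpha, stood at 47.5, 71.4 and 58.1 normalized CPM in the control and at 81.0, 86.2 and 112 in the knockdown. POLA2, its accessory subunit, was at 43.5, 58.8 and 65.5 in the control and at 70.9, 99.7 and 88.9 in the knockdown. All knockdown libraries exceeded all control libraries in both genes, and the log2 differences were 0.66 and 0.63 (standard errors 0.20 and 0.20).

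The primase genes that work beside them overlapped between the groups. PRIM2, the regulatory subunit of primase (ENSG00000146143, chr6:57314805-57646850), stood at 23.0, 25.5 and 17.0 normalized CPM in the control and at 18.3, 20.7 and 21.3 in the knockdown. Control repeats 1 and 2 were above, and control repeat 3 below, every knockdown library. The log2 difference was -0.12 with an interval of -0.57 to 0.33, and its sign turned without control repeat 2 or with the reads implied by FPKM in control repeat 2. PRIM1, the catalytic subunit, differed by 0.31 with an interval of -0.062 to 0.68. It shares 139 exon bases with NACA on the same strand, which had a mean of 10557 counts against 601 for PRIM1.

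The strand-copying polymerases lay between. POLE, the catalytic subunit of polymerase epsilon on the leading strand, was at 133, 142 and 163 normalized CPM in the control and at 199.7, 226 and 202 in the knockdown. POLD2, an accessory subunit of the lagging-strand polymerase delta, was at 259, 301 and 319.7 in the control and at 335, 446 and 422 in the knockdown. Neither gene had a control library above a knockdown library, although POLD2 in knockdown repeat 1 lay close to control repeat 3. Their log2 differences were 0.52 and 0.45 (standard errors 0.14 and 0.16). POLD1, the catalytic subunit of polymerase delta, differed by 0.41, POLD3 by 0.27 and POLE2 by 0.15, and the sign of POLE2 turned without control repeat 1 or knockdown repeat 2. Adjusted p-values of the 9 genes lay between 0.133 and 0.775 (edgeR's quasi-likelihood test, Benjamini-Hochberg).

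The clamp and the enzymes that finish Okazaki fragments were higher in the knockdown, with smaller values for the clamp loader. All 9 genes were above 0, beside 46.6% of all genes, with a median log2 difference of 0.48. An unadjusted p under 0.05 was reached by 6 of them, beside 8.74% of all genes higher at that p. PCNA, the sliding clamp, stood at 143, 254 and 389 normalized CPM in the control and at 407, 523 and 407 in the knockdown. Its control libraries spread over more than the distance between control repeat 3 and the knockdown, and the log2 difference of 0.77 had an interval of 0.045 to 1.49. It came to 0.47 without control repeat 1 and to 1.17 without control repeat 3. FEN1, the nuclease that trims Okazaki fragment flaps, was at 76.5, 112 and 134 in the control and at 147, 182 and 159.7 in the knockdown. LIG1, the ligase that seals them, was at 62.4, 75.7 and 58.4 in the control and at 91.3, 113 and 92.4 in the knockdown. Groups of both genes were apart, and their log2 differences were 0.60 and 0.59 (standard errors 0.21 and 0.16). FEN1 shares 49 exon bases with FADS2 on the same strand.

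RPA2, the middle subunit of the single-strand binding protein, stood at 33.3, 41.8 and 48.4 normalized CPM in the control and at 57.9, 63.8 and 51.1 in the knockdown, without overlap. Its log2 difference was 0.48 and that of RPA1, the large subunit, 0.50. RFC4, one of the small subunits of the clamp loader, was at 66.8, 77.3 and 71.3 in the control and at 69.7, 82.3 and 75.1 in the knockdown. These groups interleaved, and the log2 difference was 0.076 with an interval of -0.24 to 0.39. The other loader genes differed by 0.43 (RFC3), 0.34 (RFC2) and 0.15 (RFC5). Adjusted p-values of the 9 genes lay between 0.130 and 0.794 (edgeR's quasi-likelihood test, Benjamini-Hochberg).

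UNG, the glycosylase that removes uracil from DNA, had the largest difference of the 54 genes, and the nucleotide-making enzymes listed with it had smaller ones. UNG (ENSG00000076248, chr12:109097597-109126725) stood at 21.3, 34.0 and 75.2 normalized CPM in the control and at 118, 122 and 91.2 in the knockdown. Every knockdown library was above the control, but control repeat 3 lay closer to the knockdown than to control repeat 1. The log2 difference was 1.34, or 2.54-fold, with a wide interval of 0.44 to 2.24. Without control repeat 3, the log2 difference was 2.001. TYMS, thymidylate synthase, stood at 12.2, 12.9 and 25.6 in the control and at 17.9, 21.3 and 18.6 in the knockdown. Here control repeat 3 was the highest of all 6 libraries, and the log2 difference was 0.19 with an interval of -0.48 to 0.86. It came to -0.24 with the reads implied by FPKM in control repeat 2. TYMS shares 967 exon bases with ENOSF1 on the other strand, which had a mean of 670.0 counts against 285 for TYMS.

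RRM1 and RRM2, the subunits of ribonucleotide reductase, differed by 0.27 and 0.38, and TK1, thymidine kinase, by 0.38. All 3 had overlapping groups and intervals that included 0. TK1 was the most uneven of them in the knockdown, from 212 to 405 normalized CPM. RRM2 came to 0.17 without control repeat 1 and to 0.69 without control repeat 3, where it was a DEG in edgeR. RRM1 came to 0.14 without control repeat 3 and to 0.50 with the reads implied by FPKM in control repeat 2, and TK1 to 0.18 without knockdown repeat 3 and to 0.61 without knockdown repeat 1. Without control repeat 3, the median of the 5 genes was 0.63. The 5 genes had a median log2 difference of 0.38 and adjusted p-values between 0.143 and 0.750 (edgeR's quasi-likelihood test, Benjamini-Hochberg).

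The genes that rebuild chromatin and copy DNA methylation behind the fork were higher in the knockdown. Of the 4, 3 had an unadjusted p under 0.05, beside 8.74% of all genes higher at that p. The same 3 had groups without overlap, against 12.5% of all genes with the knockdown wholly above. UHRF1, which binds hemimethylated DNA and recruits DNMT1, stood at 78.4, 130.3 and 102 normalized CPM in the control and at 203, 255 and 164 in the knockdown. DNMT1, the maintenance methyltransferase, was at 363, 441 and 399.8 in the control and at 513, 645 and 551 in the knockdown. Both genes had their highest control value in repeat 2, below every knockdown value. The log2 differences were 1.00 for UHRF1 (ENSG00000276043, chr19:4903080-4962154), with an interval of 0.48 to 1.52, and 0.51 for DNMT1, with an interval of 0.16 to 0.86.

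CHAF1A and CHAF1B encode subunits of chromatin assembly factor 1, the histone chaperone bound to PCNA. CHAF1A was at 81.8, 105 and 115 normalized CPM in the control and at 137, 169 and 148 in the knockdown. CHAF1B was at 17.5, 29.8 and 23.8 in the control and at 30.4, 41.7 and 27.7 in the knockdown. Only the groups of CHAF1A were apart, since control repeat 2 of CHAF1B lay above knockdown repeat 3. Their log2 differences were 0.59 and 0.49 (standard errors 0.17 and 0.24). The 4 genes had a median of 0.55 and adjusted p-values between 0.114 and 0.306 (edgeR's quasi-likelihood test, Benjamini-Hochberg).

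Levels between genes were compared per kilobase of gene length, using the length that the deposited counts and FPKM values imply. In the control, MCM7 had the highest level of the 54 genes, 405 ± 60.7 normalized CPM per kb (SD, n = 3), and it ranked first also with the length of the Ensembl canonical transcript. POLD2 at 341 ± 36.3 and DNMT1 at 293 ± 28.2 came next. The ranges of mean ± SD overlapped between neighbours in this order, and DNMT1 ranked 6 with canonical lengths. At the other end were E2F8 with 2.01 to 2.54 normalized CPM per kb over the 3 control libraries, CCNE2 with 1.83 to 3.85, E2F2 with 2.43 to 4.53 and CCNE1 with 2.60 to 4.09, and each of these ranges overlapped the next in this order, although that of E2F8 lay below that of CCNE1. The implied length was shorter than the canonical transcript for 53 of the 54 genes, all but PCNA, so levels per length shift with that choice.

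The share of MCM2 within the MCM ring was higher in every knockdown library than in every control library. MCM2 had the largest log2 difference of the ring, so its share largely restates that difference. The ring contains the subunits in equal numbers, but per kilobase their transcripts were unequal, with MCM7 highest and MCM6 lowest in all 6 libraries under both kinds of length. MCM2 made up 13.6%, 14.0% and 14.2% of the summed ring level in the control and 16.1%, 17.8% and 20.4% in the knockdown. With canonical lengths, these shares were 12.5%, 13.0% and 13.2% in the control and 15.2%, 16.7% and 19.4% in the knockdown. The groups did not overlap under either length, though a change of length only rescales each gene by a constant and adds no support. MCM7 made up 40.4%, 37.8% and 37.2% in the control and 34.9%, 35.2% and 33.2% in the knockdown.

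The GINS complex likewise holds 1 copy of each subunit, while its transcripts were not level. In the control, GINS2 at 20.0 ± 5.73 normalized CPM per kb (SD, n = 3) and GINS1 at 18.9 ± 4.99 exceeded GINS4 at 10.3 ± 1.77 and GINS3 at 7.19 ± 5.21. In the knockdown, GINS2 was at 38.3 ± 5.89 and GINS1 at 34.3 ± 3.48, with GINS4 at 12.4 ± 3.38 and GINS3 at 10.5 ± 1.85. Canonical lengths gave the same order in the control, while in the knockdown GINS3 at 5.71 stood above GINS4 at 4.94. Among the ORC genes, ORC1 was at 8.98 ± 0.917 in the control against 29.7 ± 1.34 for ORC2 and 45.2 ± 20.6 for ORC6. In the knockdown ORC1 was at 12.4 ± 1.96 and ORC2 at 26.5 ± 1.58. With canonical lengths, ORC1 was at 8.98 and ORC2 at 9.48 in the control, and at 12.4 and 8.44 in the knockdown, so the order of these 2 genes turned with the length in the knockdown and not in the control.

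The libraries of a group differed among themselves in a way that most members shared. On the scale of log2(normalized CPM + 1) minus each gene's mean, the 54 genes averaged -0.50, -0.15 and -0.055 in the control repeats and 0.14, 0.38 and 0.19 in the knockdown repeats. Control repeat 1 was the lowest library for 43 of the 54 genes. The level of control repeats 1, 2 and 3 was below every knockdown library for 48, 37 and 38 genes. Control repeat 3 was the highest control library for 31 genes and control repeat 2 for 21. The spread between repeats, as the SD of log2(normalized CPM + 1), was larger in the control for 39 of the 54 genes, with a median of 0.27 against 0.18 in the knockdown.

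Other gene lists also differed between these libraries. The 15 hypoxia genes listed for comparison averaged 1.58, 0.85 and -0.35 in the control repeats and -0.66, -0.97 and -0.46 in the knockdown repeats on that scale. All 15 were below 0 in the difference of knockdown minus control, 11 of them at an unadjusted p under 0.05, beside 10.4% of all genes. Their median log2 difference was -1.35. NDRG1 was the lowest, at -3.44, and SLC2A1, the glucose transporter, the highest, at -0.43. Control repeat 1, highest for these genes, was lowest for the replication genes, and control repeat 3 was nearest to the knockdown in both lists. The part of hypoxia or of control repeat 1 in the replication genes was not tested beyond leaving that library out.

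**Figure D4:**
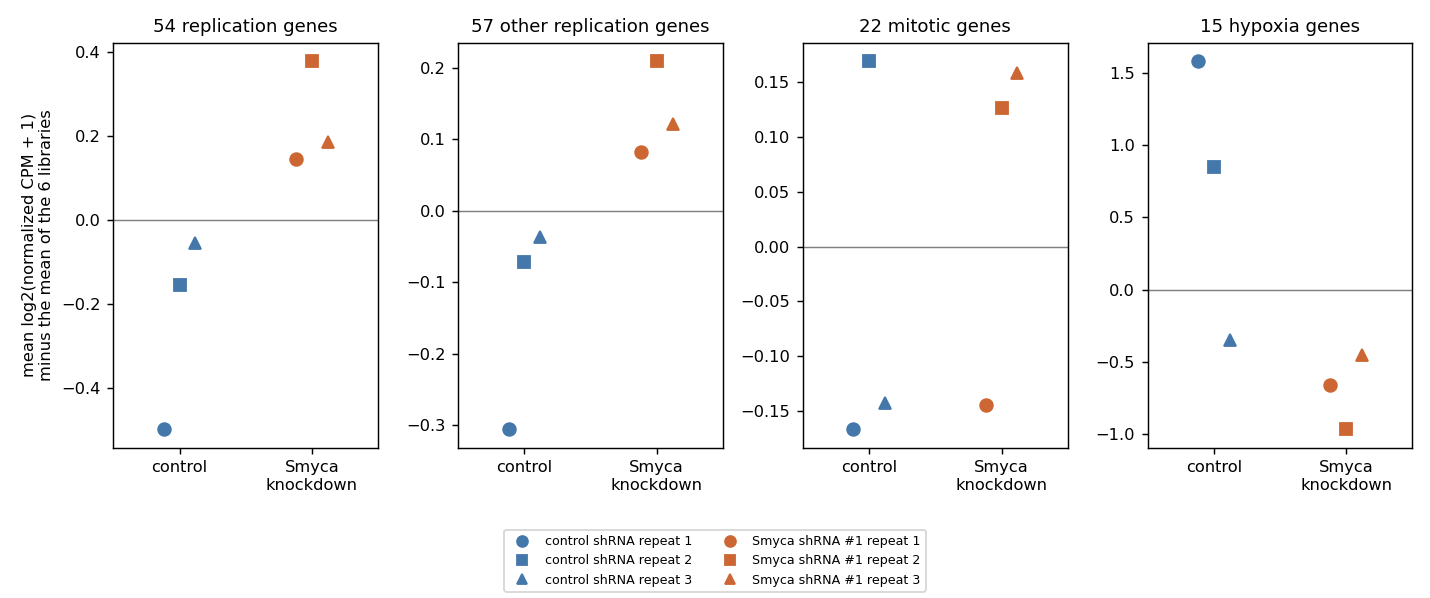
Mean of log2(normalized CPM + 1) minus each gene's mean over the 6 libraries (vertical axes, scaled separately) for 4 gene lists in the control (blue) and the Smyca knockdown (orange), with the shape giving the repeat. The knockdown libraries lie above the control libraries for the 54 replication genes and the 57 other replication genes, the groups mix for the 22 mitotic genes, and control repeats 1 and 2 stand highest for the 15 hypoxia genes.

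Mitotic genes listed for comparison had groups that mixed. Their 22 genes averaged -0.17, 0.17 and -0.14 in the control repeats and -0.14, 0.13 and 0.16 in the knockdown repeats. The median log2 difference was 0.093, and 15 of the 22 were above 0, beside 46.6% of all genes. At an unadjusted p under 0.05, 1 was higher (CCNB1, cyclin B1, at 0.78), beside 8.74% of all genes. The knockdown group lay wholly above the control for 0 of them, against 12.5% of all genes. TTK, a spindle checkpoint kinase named here after its values were seen, was the 1 gene with the knockdown wholly below, at -0.23, against 12.4% of all genes. CENPA, the centromeric histone, was lowest at -0.36. The difference between the lists was not tested.

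A further 57 replication genes outside the 54 gave a smaller median difference with the same sign. Of these, 46 were above 0, beside 46.6% of all genes, and the median log2 difference was 0.32. At an unadjusted p under 0.05, 20 were higher, beside 8.74% of all genes, and 1 was lower, beside 10.4%. CLSPN, the fork checkpoint adaptor claspin, had the largest positive difference, with 13.5, 21.4 and 22.3 normalized CPM in the control and 27.0, 39.8 and 46.6 in the knockdown. Its log2 difference was 0.99. POLD4, the smallest subunit of polymerase delta, was the 1 gene that was lower at that p, with 12.6, 7.14 and 5.25 in the control and 4.25, 3.42 and 3.76 in the knockdown. Its groups did not overlap, and the log2 difference of -1.13 stood against positive differences for the other three subunits, 0.41, 0.45 and 0.27. By group, the medians were 0.21 for 13 other E2F and retinoblastoma genes, 0.23 for 16 licensing genes, 0.31 for 12 fork genes, 0.39 for 10 nucleotide genes and 0.35 for 6 histone chaperone genes.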

How the data were processed

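Total RNA of the cells labelled MDA-MB-231 was depleted of rRNA and sequenced in paired ends from strand-specific libraries. Mapping was done by the authors with TopHat v2.0.12 (GRCh38) and counting per gene with HTSeq, and the authors deposited a raw count and an FPKM value per gene and library. The annotation release and the strand setting of the counting are not given in the sources used here. In control repeat 2, the deposited FPKM column did not follow its counts, and the 16759253 whole reads behind it were used as an alternative (99.996% of 23593 genes within 0.05 of a whole read).

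Tests on the counts used edgeR 4.0.16 in R 4.3.3 (TMM, filterByExpr, quasi-likelihood test of knockdown against control in all 6 libraries), after the code was tested on simulated data. Each difference is a log2 value of knockdown minus control. Symbols, exons and coordinates came from GENCODE 44. The members, lists and tests were chosen with earlier results of these data known. Values in every library are given for members with an unadjusted p under 0.05 and groups apart, the members with the largest and smallest difference of each complex, and members below 0. Of the 57 other replication genes together and of the mitotic, hypoxia and marker lists, the extremes are named, and a few others by counts or levels seen. One marker gene is not reported here. Levels per canonical transcript length were added after the data were seen.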

Additional observations from a re-analysis of the deposited data

How the results depend on the processing

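The alternatives were RLE size factors, library totals, a filter of 1 count in all or of 10 counts in each library, DESeq2 1.42.0, the repeat number as a block, the whole reads that the FPKM of control repeat 2 imply, and each repeat left out in turn. The median log2 difference of the 54 genes stayed between 0.35 and 0.57 and the count of genes with the knockdown wholly above the control between 23 (library totals, beside 8.46% of all genes) and 37 (without control repeat 3, beside 23.5%, and without knockdown repeat 3, beside 19.1%). The number of DEGs in all genes was 4 and became 8 with library totals, 916 without the filter, 850 with DESeq2, 10 with the FPKM reads and 0 with the replicate block. It ranged from 0 to 1628 when single repeats were left out, with 1628 without control repeat 3. The number of DEGs among the 54 genes was 0 and became 11 without the filter and 13 with DESeq2, and ranged from 0 to 19 over the left-out repeats. The count at an unadjusted p under 0.05 (28) ranged from 14 to 35 over these, with 35 without control repeat 3, beside 13.9% of all genes. Of the 54 genes, 49 kept their sign under all 13 alternatives. The other five were not called, and their sign turned. With single repeats left out, ORC6 ranged from -0.12 to 0.55, CDC7 from -0.042 to 0.16, POLE2 from -0.056 to 0.31 and PRIM2 from -0.26 to 0.012. ORC6 came to -0.18 with the FPKM reads, -0.12 without control repeat 1 and -0.015 without control repeat 2. CDC7 came to -0.025 with library totals, -0.042 without control repeat 1, -0.0017 without knockdown repeat 1 and -0.00018 without knockdown repeat 2. PRIM2 came to 0.088 with the FPKM reads and 0.012 without control repeat 2, POLE2 to -0.019 without control repeat 1 and -0.056 without knockdown repeat 2, and TYMS to -0.24 with the FPKM reads. Of the genes that kept their sign, these also moved by over 1.5 times over the 13 alternatives, beside those given with their values above: E2F3 from 0.25 to 0.60, CCNE1 from 0.25 to 0.69, CDT1 from 0.086 to 0.26, GMNN from 0.15 to 0.50, CDC45 from 0.066 to 0.34, GINS4 from 0.043 to 0.45, DBF4 from 0.12 to 0.29, PRIM1 from 0.20 to 0.42, RFC4 from 0.0025 to 0.14, RFC5 from 0.053 to 0.23 and CHAF1B from 0.30 to 0.69. So did ORC2, from -0.24 to -0.099, E2F7, from -0.58 to -0.25, and E2F1, from 0.30 to 0.78. The cause of these changes was not tested.

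The correlations gave no sign that the repeat numbers pair the libraries, but with 3 repeats they cannot exclude it. Deviations of same-numbered libraries from their group means correlated at 0.061, 0.084 and -0.014, and those of differently numbered ones between -0.18 and 0.080. With the replicate block, 27 of the 54 genes were higher at an unadjusted p under 0.05, beside 7.81% of all genes, and 0 were DEGs, as were 0 of all genes tested. E2F7 was lower at that p with the block (-0.41), with library totals (-0.47), with the FPKM reads (-0.48) and without knockdown repeat 3 (-0.58), and at no such p in the other nine alternatives. Where a group is left with 2 repeats, the fit assumes the same spread as in the other group. With 3 libraries a group, every member with a log2 difference between 0 and 0.35 had a 95% interval that included 0.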
